A study of Mus musculus with 8 samples.

Results

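Satellite-transcript-rich barcodes were examined in single-cell libraries of 2 mouse lung tumors. A barcode was taken as satellite-rich when it held at least 200 detected genes, at least 3 unique molecular identifiers (UMIs) of 9 satellite-derived gene models, and when these made up at least 1% of all its UMIs. The rule selected 784 of the 3894 barcodes with at least 200 genes, out of 4343 deposited. Satellite UMIs, total UMIs and detected genes chose the barcodes, so their values below are a description.

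The tumors were of the KP model, in which the tumor suppressor p53 is floxed (p53 fl/fl). The mice were chimeras of C57BL/6 KP embryonic stem cells and albino host blastocysts of the same strain, so that host-derived cells without the KP alleles may be present. Adenovirus carrying Cre under the SPC promoter, which is active in alveolar type 2 cells, was given into the trachea of all mice, and there was no untreated group. Each tumor came from 1 mouse and gave 1 library of photoactivated, sorted cells of the Healthy/Tumor Border and 3 technical arrays of the Whole Tumor, 8 libraries in all with 405627 to 2029200 UMIs each. Seq-Well, the method used, captures polyadenylated RNA of cells in microwells on barcoded beads. In all 8 tables the tumor number inside the cell names is swapped relative to the labels of the samples, which were followed here. The tables labelled Tumor 1 held 686 barcodes at the border and 521, 600 and 513 in the arrays, and those labelled Tumor 2 held 534 and 390, 459 and 640. The cell numbers that the study states for each tumor and region run as the labels do, not as the cell names do. The arrays numbered 2 stood apart, with 20 satellite-rich barcodes in Tumor 1 and 4 in Tumor 2 against 92 to 166 in each of the other libraries.

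Major satellite repeats are tandem, A and T rich units that fill the pericentromeric heterochromatin of mouse chromosomes and are largely silent in most adult tissues. Their transcripts are known from stressed and transformed cells, and much of the RNA stays in the nucleus. Gene annotation places short gene models on a few repeat blocks that are part of the assembly, and reads from any repeat copy can be counted there. The study gave barcodes of this kind the name Quiescent Tumor. The question asked here is which lineage transcripts they hold.

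A unit of 234 bases from each of 3 of the gene models is printed to show what was counted. The sequences are from GENCODE vM21 transcripts on GRCm38, 5′ to 3′ on the annotated strand, with runs of at least 4 A in capitals for Gm26870 and runs of at least 4 T in capitals for the other two, which are annotated on the opposite strand of the repeat.
Gm26870 (chr9:3014124-3014357, minus strand): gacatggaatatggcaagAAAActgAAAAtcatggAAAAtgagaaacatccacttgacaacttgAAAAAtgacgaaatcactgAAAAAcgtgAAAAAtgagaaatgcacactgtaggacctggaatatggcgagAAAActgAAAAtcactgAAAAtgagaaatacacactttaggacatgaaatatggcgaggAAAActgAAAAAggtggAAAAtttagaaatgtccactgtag
Gm10800 (chr2:98666800-98667033, minus strand): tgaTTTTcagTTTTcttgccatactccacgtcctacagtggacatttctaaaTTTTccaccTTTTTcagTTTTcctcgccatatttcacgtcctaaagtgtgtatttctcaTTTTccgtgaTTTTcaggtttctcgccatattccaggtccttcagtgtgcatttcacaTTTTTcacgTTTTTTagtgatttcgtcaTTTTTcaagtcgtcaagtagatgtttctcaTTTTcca
Gm21738 (chr14:19417133-19417366, minus strand): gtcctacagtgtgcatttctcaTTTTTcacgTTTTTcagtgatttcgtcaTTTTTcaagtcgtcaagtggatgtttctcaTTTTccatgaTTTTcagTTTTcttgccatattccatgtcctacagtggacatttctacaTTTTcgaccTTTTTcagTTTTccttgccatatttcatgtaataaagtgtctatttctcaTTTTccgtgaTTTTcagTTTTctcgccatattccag

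The units of Gm10800 and Gm21738 were chosen as the 234-base window of each model that best matched the Gm26870 unit on either strand. That unit was read as a circle, since the start of a tandem unit is arbitrary. The chosen windows matched its reverse complement at 95.7% and 96.6% of positions, although they lie on different chromosomes. These values are the highest of a search. A Gm26870 transcript of 1170 bases, shifted by 234 bases, matched itself at 78.3% of positions. The Gm26870 unit held 46.2% A and 12 runs of at least 4 A. Of the 20-base words of each of the 9 models, 51.3% (Gm10801) to 87.3% (Gm10715) also occurred in another of the 9 on either strand. UMIs could therefore be split between the models by the counting, and their sum is the safer quantity.

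Gm10800 (chr2:98666547-98667301) took 57.4% of the satellite UMIs of the satellite-rich barcodes and was found in 99.7% of them. Gm26870 (chr9:3000282-3038313, a lincRNA) took 15.5%, Gm10801 (chr2:98662237-98664083) 12.7% and Gm10717 (chr9:3025417-3033289) 6.13%. Gm21738 (chr14:19415857-19418930) took 2.66%. The other 4 models, Gm11168, Gm10722, Gm10719 and Gm10715, all lie on chromosome 9 and took 0.773% to 1.97% each. The 784 barcodes held 84.6% of all satellite UMIs but 3.89% of all UMIs of the 3894 barcodes.

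Satellite UMIs made up a median of 6.59% of a satellite-rich barcode, with a highest value of 26.9%. These barcodes were shallow, with a median of 363.5 UMIs and 270 genes, against 2253 UMIs and 849 genes in the 3110 other barcodes. Of them, 730 (93.1%) had under 1000 UMIs. The 455 other barcodes with under 1000 UMIs, called shallow barcodes below, had a median of 642 UMIs and 0 satellite UMIs, and 263 of them came from array 2 of the Tumor 2 Whole Tumor, on which values pooled over shallow barcodes therefore lean. The threshold did not fall in a gap: the 5 barcodes just inside it held 1.00% to 1.03% satellite UMIs and the 5 just outside 0.967% to 0.997%.

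**Figure D1:**
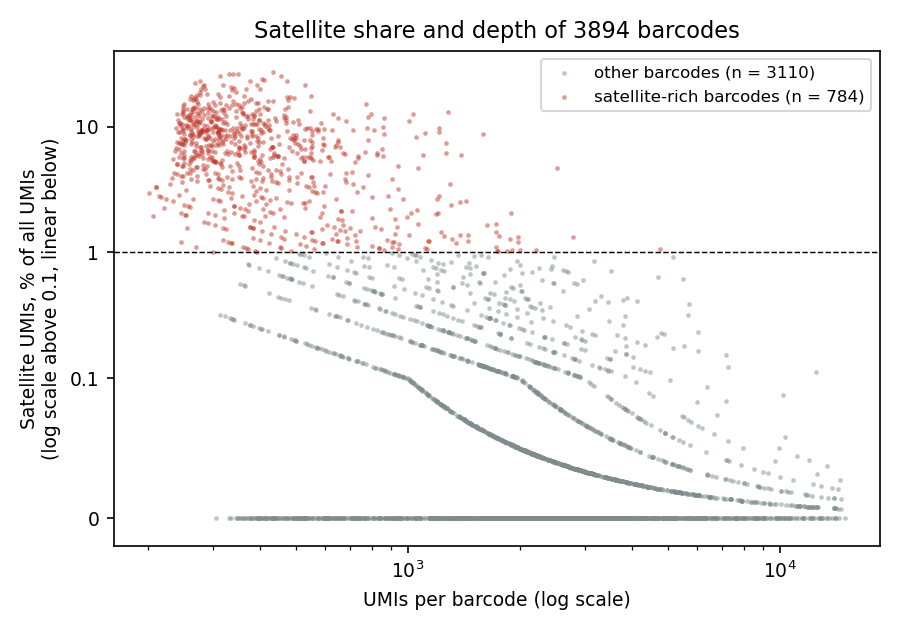
Each point is 1 of the 3894 barcodes with at least 200 genes, with its UMIs on a log axis and the percent of satellite UMIs on an axis that is linear below 0.1 and logarithmic above; the dashed line is the 1% limit of the rule. The 784 satellite-rich barcodes (red) lie mostly below 1000 UMIs, and the other barcodes (grey) continue up to the line.

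Satellite-rich barcodes made up 26.8% of the barcodes of the Tumor 1 Healthy/Tumor Border (exact 95% Clopper-Pearson interval 23.3% to 30.4%, counting error only) and 19.8% (16.4% to 23.5%) of that of Tumor 2. In the Whole Tumor arrays 1, 2 and 3 they made up 32.7%, 3.48% and 34.6% in Tumor 1 and 32.0%, 1.09% and 14.9% in Tumor 2. With a limit of 300 genes in place of 200, each share was lower, at 0.913% to 19.7%. The arrays of 1 tumor thus spread over most of the range seen in the series, and both borders lay inside the range of the arrays of their tumor. The mean share was 23.6% ± 17.5 (SD, n = 3 arrays) in Tumor 1 and 16.01% ± 15.5 in Tumor 2, which did not differ beyond the spread between arrays (two-sided exact permutation test, p = 0.5, smallest possible p 0.1). The arrays are technical repeats of 1 mouse per tumor, so p-values here measure that spread alone.

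**Figure D2:**
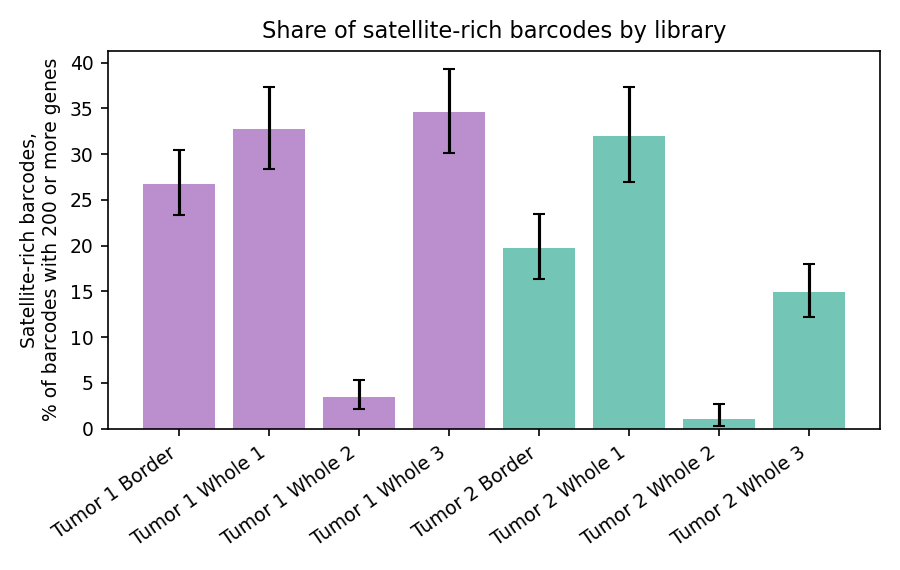
Bars give satellite-rich barcodes as a percent of barcodes with at least 200 genes in each library, with exact 95% Clopper-Pearson intervals; purple is Tumor 1 and green is Tumor 2. Array 2 of each Whole Tumor stands at 3.48% and 1.09%, below every other library.

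Lineage transcripts were read as UMIs of a marker list per 10000 UMIs outside the 9 satellite models, and none of the 9 lineage lists was absent from the satellite-rich barcodes. Every list was far below its level in reference barcodes, which are other barcodes with at least 3 UMIs of the list's anchor genes and more of them than of any other list's anchors. The readout genes of the neutrophil list (13 genes, anchors left out) stood at 25.3 per 10000 in the satellite-rich barcodes and 83.0 in 1222 neutrophil reference barcodes, which is 30.5% of the reference level. Barcodes near the limit of the rule carried much of this list: the 122 with 1 to 2% satellite UMIs held 1158 of its 1839 UMIs, anchors included, and with a 2% rule its summed level fell from 52.1 to 26.8 per 10000. Readout genes of the macrophage list stood at 19.2 against 122 in 636 reference barcodes, or 15.7%. The barcodes with 1 to 2% satellite UMIs held 525 of the 1114 UMIs of this list, anchors included. No other list came above 12.8% of its reference, the value of the T or NK list.

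The epithelial lists bear on the name Quiescent Tumor. The keratin-high epithelial readout, genes such as Krt7 and Epcam of simple epithelia, stood at 4.08 per 10000 in the satellite-rich barcodes and 71.2 in 132 reference barcodes, or 5.72%. The alveolar type 2 readout, genes of surfactant-producing cells, stood at 4.98 against 154 in 56 reference barcodes, or 3.24%. For comparison, the endothelial readout stood at 6.20 (8.81% of its reference), the B readout at 4.87 (8.67%), the dendritic readout at 4.61 (5.92%) and the fibroblast readout at 7.84 (2.16%). Those references held 43, 14, 33 and 20 barcodes in the same order. Epithelial transcripts were thus no higher, relative to their reference, than those of the endothelial, B or dendritic list, but higher than those of the fibroblast list. Each readout was also set against its highest level in reference barcodes of any other lineage. The alveolar type 2 (3.23), endothelial (4.93), B (4.85), T or NK (5.15 against 5.10) and neutrophil (25.3 against 19.8) readouts lay above that level. The keratin-high (35.9), macrophage (19.2 against 42.1), dendritic (11.1) and fibroblast (50.3) readouts lay below it.

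Single genes differed widely in their distance from the reference, and those given here are readout genes, which did not choose the reference barcodes. Clec4d, a C-type lectin of myeloid cells, stood at 334 CPM, scaled to UMIs outside the 9 models, in the satellite-rich barcodes, 586 in shallow barcodes and 1182 in neutrophil reference barcodes. Ctsd, the lysosomal protease cathepsin D, stood at 699, 1411 and 2471 in macrophage reference barcodes. Krt7, a keratin of simple epithelia, stood at 170, 37.1 and 4784 in keratin-high reference barcodes. Chi3l1, a chitinase-like protein, stood at 195, 232 and 4182 in alveolar type 2 reference barcodes. Apart from Napsa (53.8 against 53.9), the other genes of that list were higher in satellite-rich than in shallow barcodes. Sftpa1, a surfactant protein, stood at 34.0 against 16.8, on 12 and 5 UMIs. Vwf, a clotting factor of endothelial cells, stood at 127, 50.5 and 1529, and Ebf1, a B cell transcription factor, at 130, 60.6 and 311 in their own reference barcodes. Fn1, the fibronectin gene, stood at 408, 435 and 13554 in fibroblast reference barcodes, Ccr7, a chemokine receptor of migrating dendritic cells, at 62.3, 148 and 2759 in dendritic ones, and Il7r, the interleukin 7 receptor, at 51.0, 104 and 865 in T or NK ones. Mmp8, a neutrophil collagenase, stood at 73.6 against 75.9 in its reference. Skap1 of the T or NK list (87.8 against 86.5), Xcr1 (28.3 against 12.9), Clec9a (22.7 against 19.4) and Cd209a (17.0 against 6.46) of the dendritic list and Ly6g (5.66 against 0.957) stood above it, on 2 to 31 UMIs each in the satellite-rich barcodes. The T or NK and dendritic reference values come from only 20 and 33 barcodes, so these gaps rest on few UMIs on both sides.

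Summed over anchors and readout, the 2 most abundant lists were lower in satellite-rich than in shallow barcodes of the same library in 7 of 8 libraries. The neutrophil list stood at 43.4 per 10000 at the border of Tumor 1 and at 32.8, 67.7 and 27.7 in its arrays, and at 35.2 at the border of Tumor 2 and 98.5, 51.9 and 92.8 in its arrays. The shallow barcodes of the same libraries held 107, then 71.3, 69.2 and 96.5, and 38.1, then 69.5, 156 and 107. The macrophage list stood at 16.6, then 33.7, 18.7 and 29.0 in Tumor 1 and at 51.1, then 37.4, 64.9 and 30.3 in Tumor 2. The ranges of satellite-rich and shallow barcodes overlapped for both lists.

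The less abundant lists differed among themselves in direction. They are given as medians over the 8 libraries, because array 2 of Tumor 2 gave 263 of the 455 shallow barcodes and weighs on their pooled sums. The endothelial list had a median of 7.91 per 10000 in satellite-rich and 1.84 in shallow barcodes and was higher in 7 of 8 libraries, and the keratin-high list, with 5.64 and 1.59, was also higher in 7 of 8. The dendritic list (5.60 and 1.85) and the T or NK list (5.06 and 0.594) were higher in 6 of 8. The alveolar type 2 list (7.32 and 4.18) and the B list (4.80 and 3.98) were higher in 5 of 8, and the pooled sum of the B list was lower in satellite-rich barcodes (5.18 against 5.79). The fibroblast list (9.99 and 9.76) was higher in 3 of 8 and lower in 5.

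**Figure D3:**
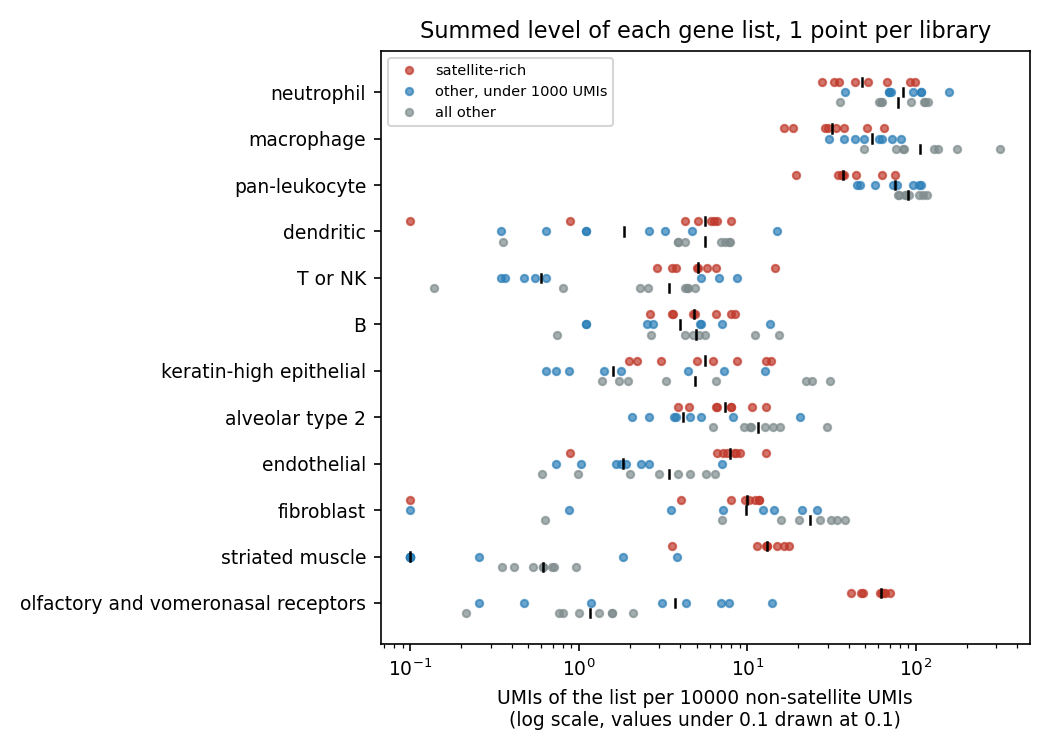
Each point is 1 library, showing UMIs of a gene list per 10000 non-satellite UMIs on a log axis (values under 0.1 drawn at 0.1) in satellite-rich (red), other shallow (blue) and all other barcodes (grey); black ticks are medians. The receptor list separates the red points from the others, striated muscle does so except for 1 red point at 3.56 under a blue one at 3.81, and the neutrophil, macrophage and pan-leukocyte lists are lower in red with overlap.

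Depth was then made equal by drawing 200 non-satellite UMIs from each barcode, which left out 1 satellite-rich barcode. At this depth 32.1% of 783 satellite-rich barcodes held a neutrophil UMI (45.4% before thinning), against 56.3% of shallow barcodes (68.4%) and 88.4% of neutrophil reference barcodes. The lists keep their anchors here, so the shares in reference barcodes, which the anchors chose, are high by construction. For the endothelial list the shares were 15.7% (25.0% before thinning) in satellite-rich, 3.96% (8.79%) in shallow and 69.8% in reference barcodes. For the keratin-high list they were 11.0% (17.0%), 3.52% (7.69%) and 89.4%. Barcodes with several UMIs of 1 lineage were few: 84 satellite-rich barcodes (10.7%) held at least 3 UMIs of any lineage list at this depth, against 221 (48.6%) of shallow and 1587 (51.0%) of all other barcodes. Of the satellite-rich barcodes, 45 reached 3 UMIs of the neutrophil list, 27 of the macrophage list, 4 each of the keratin-high and fibroblast lists and 1 of the alveolar type 2 list. A further 162 (20.7%) held no UMI of any of the 9 lists, against 13.2% of shallow barcodes. Free RNA in the wells was not measured here, and its part in these low levels was not tested.

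Summed levels of general leukocyte and housekeeping transcripts were lower than in shallow barcodes as well, although no single gene of these lists was called in the fit described further on. Srgn, a proteoglycan of leukocyte granules, was found in 24.5% of satellite-rich and 64.2% of shallow barcodes, and Ptprc, the CD45 antigen, in 9.06% and 40.2%. The housekeeping list had a median over libraries of 116 per 10000 in satellite-rich and 216 in shallow barcodes and was lower in all 8 libraries. Immediate early genes such as Jun and Egr1, which respond within minutes to stimulation, had medians of 61.7 and 102 and were also lower in all 8. Mitochondrially encoded RNA made up a median of 1.71% of UMIs in satellite-rich and 5.64% in shallow barcodes, and 100 satellite-rich barcodes (12.8%) held none. By library the median of satellite-rich barcodes ran from 0.376% to 4.60%. The summed mitochondrial list was lower than in shallow barcodes in 7 of 8 libraries and higher in array 1 of Tumor 1 (1059 against 751 per 10000).

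Lists of cell cycle inhibitors and of proliferation genes were set beside each other. Cell cycle inhibitors, among them Cdkn1a and Btg1, had a median over libraries of 19.8 per 10000 in satellite-rich and 26.3 in shallow barcodes and were lower in 7 of 8 libraries. The proliferation list had medians of 5.86 and 2.05 and was higher in 7 of 8. Mki67, a marker of cycling cells, had 61 UMIs in satellite-rich and 4 in shallow barcodes, and Top2a, the topoisomerase of dividing cells, 37 and 5, whereas Pcna, the replication clamp, had 16 and 14. In all, 18.9% of satellite-rich barcodes held a UMI of the list, and 11.1% did after thinning. No call of a cycling state is made from these sums.

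The nuclear-retained RNA list had a median over libraries of 60.2 per 10000 in satellite-rich and 192 in shallow barcodes and was lower in all 8 libraries. Malat1, a long noncoding RNA of nuclear speckles, stood at 4519 CPM in satellite-rich and 13074 in shallow barcodes, and Neat1, the scaffold of paraspeckles, at 852 and 1526. Malat1 was lower in satellite-rich barcodes in 8 of 8 libraries (log2 difference -1.37 ± 0.38 (SE), adjusted p = 0.0136, edgeR quasi-likelihood test with Benjamini-Hochberg adjustment). Meg3, an imprinted noncoding RNA, went the other way with 68 UMIs against 4.

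The make-up of all UMIs outside the 9 models was then compared between satellite-rich and shallow barcodes, summed per library, with library as a term in edgeR. Of 662 genes that passed the filter on low counts, 18 (2.72%) passed the threshold of 0.05, with 14 (2.11%) higher and 4 (0.604%) lower in the satellite-rich barcodes, and 71 had an unadjusted p under 0.05. With a 2% rule 49 genes were higher and 15 lower, without the Tumor 2 border 9 and 2, with no filter but 1 UMI 694 and 6, and against all other barcodes, which are deeper, 3431 and 3692. Ttn, the giant sarcomere protein of striated muscle, had 42 UMIs at the border of Tumor 1 and 60, 2 and 62 in its arrays, and 48 at the border of Tumor 2 and 31, 2 and 43 in its arrays. The shallow barcodes held 3, 0, 0, 5, 0, 0, 0 and 0 Ttn UMIs in the same order. Ttn was found in 157 of the 784 barcodes, at most 7 UMIs in any, and rose by 4.71 ± 0.51 on the log2 scale (adjusted p = 2.7e-17).

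Gm4117 rose by 5.07 ± 0.71 (adjusted p = 4.67e-10), from 2 UMIs in shallow to 103 in satellite-rich barcodes, and Trpc2, an ion channel of vomeronasal sensory neurons, by 4.34 ± 0.97 (adjusted p = 0.000569), from 2 to 47. Tanc1, a scaffold protein of synapses, rose by 4.67 ± 0.83, Ank3, the ankyrin of the axon initial segment, by 3.27 ± 0.57, and Nav2, a cytoskeletal protein of neurite growth, by 3.06 ± 0.53. Dst, a giant linker of the cytoskeleton, rose by 2.97 ± 0.46, Zbtb20, a transcription repressor, by 2.70 ± 0.49, and Zfp260, a zinc finger protein, by 2.39 ± 0.64. Array 1 of Tumor 1 alone held 39 of the 73 Zfp260 UMIs of satellite-rich barcodes. Arhgap31 rose from 29 UMIs in shallow to 74 in satellite-rich barcodes (adjusted p = 0.00326). The other 4 genes called higher were Dync1h1, Birc6, Mmp9 and D830044I16Rik. Each of the first 10 genes was higher in satellite-rich barcodes in at least 7 of 8 libraries. Besides Malat1, the genes that fell were mmu-mir-6236 (log2 difference -2.03 ± 0.37), Gm15564 (-1.61 ± 0.37) and Lars2, the mitochondrial leucyl-tRNA synthetase (-1.45 ± 0.38).

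Among the lists, 1 of 13 tested neutrophil genes was called higher, the gelatinase gene Mmp9, and none of 7 macrophage, 8 pan-leukocyte, 7 housekeeping, 10 immediate early or 4 cell cycle inhibitor genes was called in either direction. The median log2 difference was 0.01 over the neutrophil, -0.17 over the macrophage, -0.02 over the pan-leukocyte, -0.22 over the housekeeping, -0.07 over the immediate early, 0.01 over the cell cycle inhibitor and 0.68 over 8 mitochondrial genes, beside -0.06 over all 662. For the neutrophil, cell cycle inhibitor and mitochondrial lists the sign of the median thus differs from that of the summed level, which was lower in satellite-rich barcodes. The median over all genes was 0.31 without scaling between sums, and then 42 genes were called higher and 5 lower. No gene of the dendritic, T or NK, B, endothelial or proliferation lists passed the filter on low counts.

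Of the striated muscle list only Ttn was tested, and 9 of its 10 genes had a UMI in the satellite-rich barcodes, 495 UMIs in all. The summed list stood at 13.1 per 10000 at the border of Tumor 1 and at 13.0, 3.56 and 17.7 in its arrays, and at 15.0, then 11.5, 13.0 and 16.6 in Tumor 2, against at most 3.81 in the shallow barcodes of any library. Neb, the giant actin ruler of muscle, had 58 UMIs in satellite-rich and 2 in shallow barcodes, and Nebl, its shorter relative, 30 and 1. Tnnt2, the cardiac troponin T, was the gene with 0 UMIs in the satellite-rich barcodes, where a count of 0 allows up to 3, and 11.3 CPM in all other barcodes.

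Genes of tissues that the lung does not hold were then summed, a choice made after these results had been seen, so that no test is given. Olfactory and vomeronasal receptors are expressed in sensory neurons of the nose. In the satellite-rich barcodes, 946 of the 1311 such genes in the tables had at least 1 UMI, 2057 UMIs in all. In shallow barcodes 76 of them had a UMI, and in all other barcodes 660. The level of the receptors in satellite-rich barcodes was 65.6 per 10000 at the border of Tumor 1 and 47.5, 41.0 and 63.0 in its arrays, and 69.9 at the border of Tumor 2 and 48.4, 64.9 and 61.3 in its arrays. The shallow barcodes held 0.255 to 14.0 and all other barcodes 0.215 to 2.10, so the groups did not overlap. No gene stood out: Olfr70 led with 16 UMIs in 12 barcodes, Olfr554 had 11 and Vmn1r67 had 10. After thinning, 69.1% of satellite-rich barcodes held a receptor UMI (83.9% before thinning), against 4.18% of shallow barcodes (10.1%). Summed over all libraries this list stood at 58.2 and the neutrophil list, the highest of the 9 lineage lists, at 52.1. The neutrophil list was the higher one in array 2 of Tumor 1 and in arrays 1 and 3 of Tumor 2, and also with a 0.5% rule (56.6 against 47.4).

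The pattern extended to seldom-detected genes as a class. The 6927 protein-coding genes under 1 CPM in other barcodes with at least 1000 UMIs took 11.7% of the protein-coding UMIs of satellite-rich barcodes, 0.764% of those of shallow barcodes and 0.261% of those of all other barcodes, where the definition keeps them low. By library the share ran from 7.94% to 12.8% in satellite-rich and from 0.171% to 3.24% in shallow barcodes. Of these genes, 85.2% had a UMI in the satellite-rich barcodes, 17.7% in shallow barcodes and 75.6% in all other barcodes. The 27923 genes of the tables match the number that the study states it recovered, so genes without any UMI may be absent. These percents, and the share of receptor genes with a UMI, may be raised by that. In all, 24337 genes had a UMI in the 376489 UMIs of satellite-rich barcodes, against 13478 in the 297366 of shallow ones, and thinned satellite-rich barcodes held a median of 179 genes in 200 UMIs against 128. That last difference is in part set by the selection. Satellite-rich barcodes reach the limit of 200 genes with a median of 363.5 UMIs, shallow ones with 642.

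Counts were also set against gene length. The fifth of protein-coding genes with the longest exonic sequence in GENCODE vM21 took 36.6% of protein-coding UMIs in satellite-rich barcodes (34.6% to 38.4% over libraries), 31.4% in shallow (27.3% to 39.0%, a range that contains the former) and 29.4% in all other barcodes, and holds 44.5% of exonic bases. The fifth with the shortest took 7.76%, 9.61% and 10.6%. Across 19449 genes, which are not independent, Spearman's rho of UMIs with exonic length was 0.62 in satellite-rich, 0.42 in shallow and 0.43 in all other barcodes. Symbols matched the annotation for 25970 of 27923 genes.

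These features changed along the satellite share, again a description added after the data had been seen. From barcodes with 1 to 2% satellite UMIs through 2 to 5% and 5 to 10% to 10% or more, the receptor list went from 21.3 to 46.8, 78.5 and 94.9 per 10000. Over the same bands the pan-leukocyte list went from 87.6 to 47.1, 16.9 and 13.0, the housekeeping list from 269 to 160, 54.2 and 31.1, and the neutrophil list from 117 to 51.5, 16.7 and 13.5. The macrophage list went from 53.1 to 32.4, 21.1 and 15.1, and the endothelial list from 4.25 to 6.81, 10.6 and 8.70. Barcodes of the 1 to 2% band thus had leukocyte and housekeeping levels near those of the 130 barcodes with 0.5 to 1% (78.9 and 278), which the rule leaves out and which already held 23.8 receptor UMIs per 10000.

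**Figure D4:**
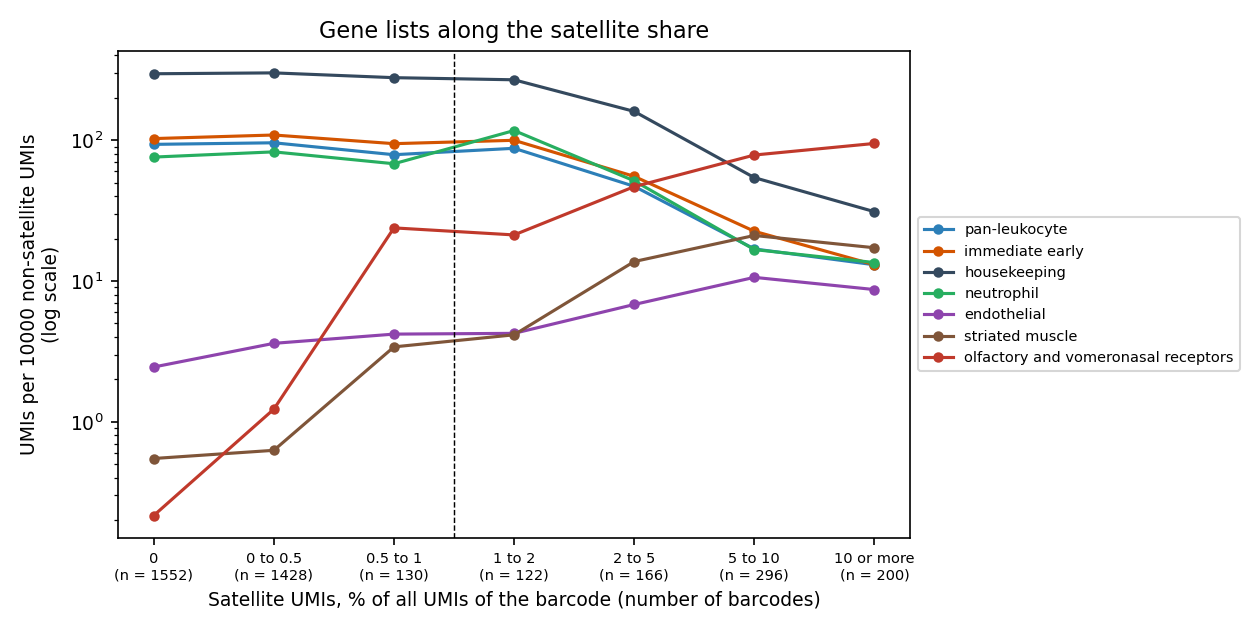
Lines give UMIs of 7 gene lists per 10000 non-satellite UMIs on a log axis in barcodes grouped by the percent of satellite UMIs, with the number of barcodes in each band; the dashed line is the 1% limit of the rule. Receptor UMIs climb from 0.216 in barcodes with none to 94.9 in the top band, while leukocyte and housekeeping lists fall above 2%.

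Between the tumors, 3 of 1918 genes (0.156%) passed the threshold in satellite-rich barcodes of the Whole Tumor, all higher in Tumor 2, and 118 had an unadjusted p under 0.05. That direction did not hold in every setting: 3 genes were higher and 3 lower with RLE scaling, 9 and 10 with a replicate block, 2 and 3 without array 2 of Tumor 1, 22 and 6 without array 2 of Tumor 2, and 30 and 16 without both arrays numbered 2. The direction held with a 2% rule (1 higher, 0 lower) and without array 3 of Tumor 2 (2 higher, 0 lower). Gzma, a granzyme of cytotoxic lymphocytes, had 0, 0 and 0 UMIs in the arrays of Tumor 1 and 38, 0 and 1 in those of Tumor 2. Those 39 UMIs came from 3 barcodes, 1 of which held 20 and 1.05% satellite UMIs, just inside the rule. Ccl5, a chemokine of cytotoxic lymphocytes, had 0, 0 and 1 against 38, 0 and 5, and Asprv1, a protease, had 1, 0 and 1 against 19, 0 and 15. The adjusted p-values were 0.000772, 0.00219 and 0.0237 (edgeR), and none of the 3 genes was called without array 1 of Tumor 2, without array 1 or array 3 of Tumor 1, or with DESeq2. Between Border and Whole Tumor no gene passed the threshold in Tumor 1 or in Tumor 2 (0 of 1918, 0%, in each), with 59 and 68 at an unadjusted p under 0.05 in edgeR, and DESeq2 called 0 in both. Each border is 1 library, assumed in the fit to vary like the arrays. These fits can find little at this depth: in simulated data for the Tumor 2 against Tumor 1 comparison, with 200 of the genes of at least 30 UMIs changed, 0 were recovered at 4-fold and 170 at 64-fold. The Border comparisons were not simulated. The low counts of calls do not show that the groups had like levels.

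The X chromosome separated the tumors in the seldom-detected genes of the satellite-rich barcodes. X-linked genes held 5.93% of these UMIs at the border of Tumor 1 and 4.73%, 5.37% and 5.10% in its arrays, but 2.04% at the border of Tumor 2 and 2.88%, 2.47% and 2.96% in its arrays. The libraries of the tumors did not overlap, and at detection limits of 0.5 and 2 CPM they did not either (5.24% to 6.34% and 4.26% to 4.96% in Tumor 1, 1.08% to 3.40% and 1.80% to 2.85% in Tumor 2). The share in Tumor 2 was 0.492 times that in Tumor 1, whereas the same ratio lay between 0.885 and 1.13 for each of the 19 autosomes. In shallow barcodes the X-linked share was 3.72% to 6.82% in Tumor 1 and 0% to 6.86% in Tumor 2, which overlap, on 1139 and 425 UMIs. In all other barcodes the X-linked share was 4.76% to 5.52% in Tumor 1 and 3.48% to 4.83% in Tumor 2. Over all protein-coding genes of those other barcodes it was 1.88% to 2.41% and 2.15% to 2.33%, which overlap, and over all protein-coding genes of the satellite-rich barcodes 2.24% to 3.03% and 1.71% to 2.61%, which overlap too. The tumors came from 1 male and 1 female mouse. Xist, the RNA that coats the inactive X of female cells, had 81 UMIs in the satellite-rich barcodes of Tumor 1 and 6 in those of Tumor 2, and 4 Y-linked genes had 0 and 30. The 30 came from the border (14) and array 1 (16) of Tumor 2, and arrays 2 and 3 had 0. In all other barcodes Xist had 2573 UMIs in Tumor 1 and 1 in Tumor 2, and the Y-linked genes had 163 and 1688. Sex, mouse and tumor cannot be told apart here.

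**Figure D5:**
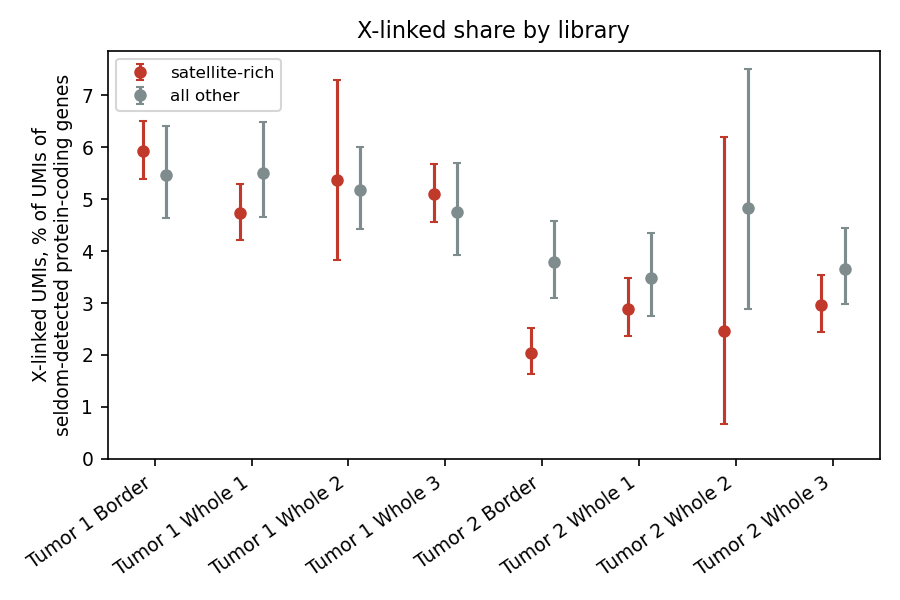
Points give X-linked UMIs as a percent of the UMIs of 6927 seldom-detected protein-coding genes in each library, with exact 95% Clopper-Pearson intervals, in satellite-rich (red) and all other barcodes (grey). The satellite-rich barcodes lie between 4.73% and 5.93% in Tumor 1 and between 2.04% and 2.96% in Tumor 2.

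Barcode quality was checked on the same barcodes. Of the satellite-rich barcodes, 33 (4.21%) resembled the amplification primer or held mostly 1 base, against 0.868% of the others, and Scrublet called 28 of them doublets among 71 calls in all. All 10 barcode sequences found in more than 1 library were of the primer or 1-base kind, and 30 satellite-rich barcodes carried one. Mitochondrial UMIs exceeded 20% in 37 of the 784 satellite-rich barcodes, 34 of the 455 shallow ones and 218 of the 3110 other barcodes.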

How the data were processed

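Seq-Well libraries of 2 KP lung tumors (8 arrays) were analysed. The authors aligned reads to mm10 and deposited raw UMI counts per gene and barcode for each array. The submitters' processing notes name STAR 2.5.2b and bcl2fastq 2.17.1.14. Groups follow the sample labels. Members and gene lists were chosen with earlier results of these data known, and the receptor, length, seldom-detected, X-linked and satellite-band summaries were added after the data had been seen.

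Counts were summed per library and class without the 9 satellite models and fitted with edgeR 4.0.16 in R 4.3.3 (TMM, filterByExpr, quasi-likelihood F test, Benjamini-Hochberg, threshold 0.05). Comparisons between groups of libraries used 4 means over 8 libraries. SE is the log2 difference divided by the root of F. DESeq2 1.42.0 was an alternative. Both kinds of fit were run on simulated counts in which 200 genes differed. Of these, here drawn only from genes with at least 100 UMIs, the fit against shallow barcodes recovered 150 at 4-fold (5 false calls, 529 genes tested). The simulated libraries shared 1 profile and a fixed spread, so recovery in the real data may be lower. The fit between the tumors recovered 0 at 4-fold (1920 tested); a simulation at 64-fold, added because of that, recovered 170 (1 false call, 2887 tested). Shares used exact Clopper-Pearson intervals (scipy 1.17.1), and barcodes were thinned to 200 non-satellite UMIs. Doublets were called with Scrublet in scanpy 1.11.5 and kept. Named are the 9 rule models, the up to 4 most abundant genes per list, and the 10 (5 for other comparisons) largest changes each way past the threshold with at least 30 UMIs. Other genes named, Mmp9, Dync1h1, Birc6, D830044I16Rik, Mmp8, Skap1, Xcr1, Clec9a, Cd209a, Ly6g and the receptors among them, were chosen after their values were seen. Promoter and protein sequences were not used here, and an allele of the model and a gene are not reported here.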

Additional observations from a re-analysis of the deposited data

Results flagged for a closer look

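Barcodes with under 200 genes, which the rule leaves out, held satellite transcripts as well: 329 of 449 (73.3%, exact 95% Clopper-Pearson interval 68.9% to 77.3%, counting error only, pooled over libraries) had at least 3 satellite UMIs that made up at least 1% of their UMIs. They drew attention as a signal in deposited data that no comparison above uses.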

How the results depend on the processing

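The difference in share between the tumors' arrays kept its direction in every alternative run, from -0.148 percentage points without array 2 of Tumor 2 to -17.7 without array 2 of Tumor 1. No p fell under 0.2, which is the smallest possible p with 1 array left out and was reached without array 2 of Tumor 1. A replicate block gave -7.61 with a sign-flip p of 0.25 (exact, the smallest possible with 3 pairs), with Tumor 2 lower in each of the 3 pairs. With so few arrays these p-values cannot show that the shares were alike. In gene levels same-numbered arrays did not deviate together (r = -0.054, -0.010 and 0.064). Both arrays numbered 2, however, had the lowest share of their tumor (3.48% and 1.09%), so whether the numbers pair the arrays was not settled. For satellite-rich against shallow barcodes, the 18 calls became 7123 against all other barcodes (10077 genes tested), 700 with no filter but 1 UMI (24592 tested), 64 with a 2% rule, and 11 to 27 with each library left out in turn (11 without the Tumor 2 border). Between the tumors, the 3 calls became 6 with RLE scaling, 0 with DESeq2, 0 with no filter, 1 with a 2% rule, 19 with a replicate block on the arrays alone, 46 without both arrays numbered 2 (an alternative added after seeing the data) and 0 to 28 with each array left out (28 without array 2 of Tumor 2). The cause of these shifts was not tested. Of 130 recomputed list levels, 128 moved by less than the SD between libraries. That SD was wide for the neutrophil list (27.4), whose level fell from 52.1 to 26.8 per 10000 with a 2% rule. The receptor list moved to 72.6 with a 2% and 47.4 with a 0.5% rule. Of 64 recomputed library shares, 41 stayed inside their interval. With at least 300 genes the shares fell to 12.7%, 19.7%, 2.01% and 14.2% in Tumor 1 (border, arrays 1 to 3) and to 10.6%, 15.2%, 0.913% and 7.40% in Tumor 2. With 1540 non-satellite UMIs in the satellite-rich barcodes of array 2 of Tumor 2, depth limits any value of that library.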
